A study of Mus musculus with 2 samples.

Results

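The genes described here are 10 regulators of oxidative and lipid metabolism, measured in mouse gastrocnemius, a fast muscle of the calf. They are the nuclear receptor genes Ppara, Ppard and Pparg, their dimer partners Rxra and Rxrg, the coactivator genes Ppargc1a, Ppargc1b and Perm1, the corepressor gene Nrip1, and Lpin1, whose protein is both a coactivator and a lipid phosphatase. They were taken by symbol from the 34745 genes of the count table, and all 10 were found. The rule itself uses no measured value, but the genes were chosen with earlier results of these data known. Total RNA was sequenced from C57BL/6 mice aged 8 weeks in 2 libraries. Cry2scko is 1 library of the genotype written Cry2scko, and Cry2flox is 1 library of genotype Cry2flox/flox. Cry2 encodes cryptochrome 2, a clock protein that represses transcription, and a recombinase can remove the floxed stretch of such an allele. The labels do not spell out scko, do not name the promoter that drives a recombinase, and state neither the hour of collection, the feeding state, the sex, nor how many animals went into a library.

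PPARs are receptors for fatty acids and their derivatives. Each binds DNA as a pair with an RXR, and the pair switches on genes for the uptake and burning of lipid. The PGC-1 proteins do not bind DNA themselves. They dock on PPARs, estrogen-related receptors and other factors, recruit the transcription machinery, and in muscle are known for driving mitochondrial content and oxidative fibre properties. RIP140, the product of Nrip1, docks on the same receptors and recruits repressors, and in mice its loss raises oxidative genes in muscle.

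The total count was 16423884 reads in Cry2scko and 18909433 reads in Cry2flox, so that a gene at 1 CPM (counts scaled to library size, after TMM scaling) had about 16.5 reads in Cry2scko and 18.8 reads in Cry2flox. With 1 library per genotype there is no replicate error, no test across animals could be made and no p-value is given. Each ratio is Cry2scko over Cry2flox on the log2 scale and carries a 95% interval for counting error only. PCR copies of 1 molecule cannot be recognised here, so the interval may be too narrow even for that. A mean of at least 1 CPM over both libraries was reached by 12832 genes, which are the genes compared. Their median log2 ratio was -0.00 and the quartiles were -0.17 and 0.18. Cry2 itself had 133 reads in Cry2scko, against 676 reads in Cry2flox, a log2 ratio of -2.16 (-2.44 to -1.89). The 7 listed genes of muscle fibres, among them the actin gene Acta1 and the creatine kinase gene Ckm, summed to 134187 CPM in Cry2scko and 139633 CPM in Cry2flox, so the defining genes of the labelled tissue were abundant in both.

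Most of the receptor and coactivator genes had nearly equal levels in both libraries, and Lpin1 and Nrip1 stood apart, with a level in Cry2scko nearly 2-fold under that in Cry2flox. Under the 2-fold rule, which asks for a 2-fold ratio and a counting interval that leaves out equality, 0 of the 10 genes were higher and 0 were lower. Over all genes compared, 3.37% were higher and 1.51% lower by that rule. At a 1.5-fold threshold, 0 of the 10 were higher, against 6.56% of all genes compared. At the same threshold 3 of the 10 were lower, Lpin1, Nrip1 and Pparg, against 4.35% of all genes compared, and either direction together held 10.9%. The median log2 ratio of the 10 genes was -0.11, and 7 of them had a ratio below 1, of which Ppard changed sign with the scaling.

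**Figure D1:**
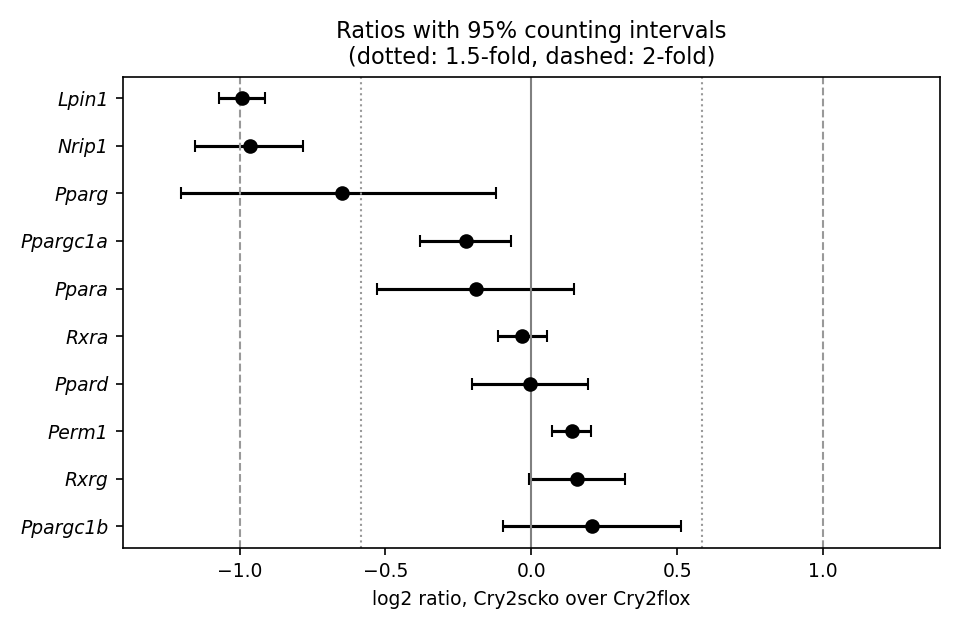
Log2 ratio of Cry2scko over Cry2flox for each of the 10 genes, with bars for the 95% counting interval; dotted lines mark 1.5-fold and dashed lines 2-fold. Lpin1 at -0.99 and Nrip1 at -0.97 lie next to the lower 2-fold line, Pparg follows at -0.65, and the other 7 genes lie between -0.22 and 0.21.

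Among the PPAR genes, Ppard was the most abundant in both libraries. Ppard encodes the PPAR delta receptor, the main PPAR of skeletal muscle. Its level was 3.74 FPKM in Cry2scko and 3.69 FPKM in Cry2flox, where FPKM are the authors' read values scaled to gene length and library size. On 396 reads in Cry2scko and 451 reads in Cry2flox, its log2 ratio was -0.00 (-0.20 to 0.19). Counting error alone thus leaves room for a log2 difference of up to 0.20 in either direction.

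Ppara encodes PPAR alpha, the receptor that drives fatty acid oxidation in liver, heart and muscle. It was read 132 times in Cry2scko and 171 times in Cry2flox, at levels of 1.33 FPKM in Cry2scko and 1.49 FPKM in Cry2flox. Its log2 ratio was -0.19 (-0.53 to 0.15), a difference within counting error at this depth. Pparg encodes PPAR gamma, the receptor that directs fat cell formation, and was the least abundant of the 10 genes in both libraries. It had 47 reads and 0.690 FPKM in Cry2scko, against 84 reads and 1.07 FPKM in Cry2flox. Its log2 ratio of -0.65 (-1.20 to -0.12) corresponds to a 1.57-fold lower level in Cry2scko, and the interval is wide because of the low count. With 0.1 added to the deposited FPKM the log2 ratio was -0.57, short of 1.5-fold.

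Pparg held 12.0% of the summed FPKM of the PPAR genes in Cry2scko and 17.1% in Cry2flox. Ppard held 64.9% in Cry2scko and 59.0% in Cry2flox, and Ppara 23.1% in Cry2scko and 23.9% in Cry2flox. The order Ppard, Ppara, Pparg was thus common to both libraries. These shares rest on the authors' gene lengths. Per kilobase of merged exons in GENCODE M21 the order was the same, with Ppard and Ppara closer together. Ppard was then at 3.19 CPM in Cry2scko and 3.20 CPM in Cry2flox, and Ppara at 2.08 CPM in Cry2scko and 2.37 CPM in Cry2flox. Set against each other, the log2 ratio of Ppard exceeded that of Pparg by 0.65 (0.08 to 1.23). The difference of Ppara from Ppard was -0.19 (-0.58 to 0.21) and that of Ppara from Pparg 0.46 (-0.17 to 1.11), both within counting error.

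Most listed fat cell genes had ratios below 1, as Pparg did. Of 9 listed white adipocyte genes 8 were compared, and the median log2 ratio of the 8 was -0.49. A ratio below 1 was found in 6 of the 8, against 6482 of the 12832 genes compared. Among the 6, the intervals of Plin1, Retn and Fabp4 hold equality. Lipe at 0.17 and Cebpa at 0.10 went the other way. Adipoq, which encodes the fat cell hormone adiponectin, was the 1 gene of the list lower by the 2-fold rule, with 30 reads in Cry2scko and 83 reads in Cry2flox. By that rule 1.51% of all genes compared were lower. The summed level of the 9 genes was 322 CPM in Cry2scko and 337 CPM in Cry2flox, most of it from Fabp4, which endothelial cells also express and whose log2 ratio was -0.02. Of the 4 listed brown fat genes, Ucp1 and Elovl3 had 0 reads in both libraries. This limits each of them to 0.181 CPM in Cry2scko and 0.160 CPM in Cry2flox (3 reads). Cidea had 15 reads in Cry2scko and 32 reads in Cry2flox, a log2 ratio of -0.89. Prdm16 had 113 reads in Cry2scko and 146 reads in Cry2flox, a log2 ratio of -0.19. The intervals of Cidea and Prdm16 hold equality. The part of fat cells in the Pparg value was not tested. In whole muscle, fewer cells of a type and less RNA per cell cannot be told apart.

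**Figure D2:**
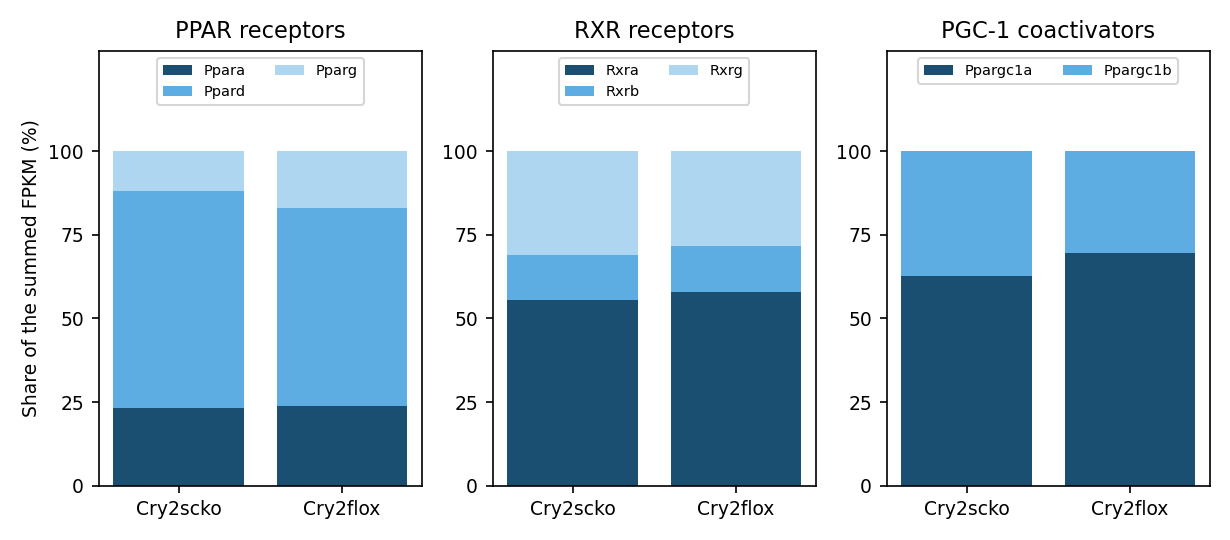
Share of each gene in the summed FPKM of its family (percent, stacked), with Cry2scko left of Cry2flox in each panel. Ppard took 64.9% of the PPAR sum in Cry2scko and 59.0% in Cry2flox, and Ppargc1a took 62.8% of the PGC-1 pair in Cry2scko and 69.5% in Cry2flox. The shares rest on the authors' gene lengths.

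The RXR genes, which encode the obligate partners of the PPARs, were more abundant than the PPAR genes and close to equal between libraries. Rxra, the most widely expressed RXR gene, had 2170 reads in Cry2scko and 2517 reads in Cry2flox, and a level of 15.9 FPKM in Cry2scko and 16.1 FPKM in Cry2flox. Its log2 ratio was -0.03 (-0.11 to 0.05). Rxrg, whose product is enriched in muscle and brain, had 8.89 FPKM in Cry2scko and 7.86 FPKM in Cry2flox. On 595 reads in Cry2scko and 606 reads in Cry2flox its log2 ratio was 0.16 (-0.01 to 0.32).

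With Rxrb, the remaining family gene, the RXR genes summed to 28.6 FPKM in Cry2scko and 27.8 FPKM in Cry2flox. The PPAR genes summed to 5.75 FPKM in Cry2scko and 6.26 FPKM in Cry2flox. Rxra provided 55.6% of the RXR sum in Cry2scko and 57.8% in Cry2flox, and Rxrg 31.0% in Cry2scko and 28.3% in Cry2flox. The log2 ratio of Rxra lay 0.19 below that of Rxrg, a difference of -0.19 (-0.37 to -0.00) that only just leaves out 0.

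Both PGC-1 genes differed little, Ppargc1a being 1.17-fold lower and Ppargc1b 1.15-fold higher in Cry2scko. Ppargc1a encodes PGC-1 alpha, the exercise-induced coactivator of mitochondrial genes. It had 594 reads and 4.30 FPKM in Cry2scko, against 788 reads and 4.95 FPKM in Cry2flox, a log2 ratio of -0.22 (-0.38 to -0.07). Ppargc1b encodes PGC-1 beta, a relative with overlapping targets. It had 183 reads and 2.55 FPKM in Cry2scko, against 180 reads and 2.18 FPKM in Cry2flox, a log2 ratio of 0.21 (-0.10 to 0.51).

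The difference between the log2 ratios of Ppargc1a and Ppargc1b was -0.43 (-0.78 to -0.09), outside counting error. Ppargc1a accordingly made up 62.8% of the FPKM of the pair in Cry2scko and 69.5% in Cry2flox. The gene counts pool the isoforms of each gene, 3 annotated coding transcripts for Ppargc1a and 2 for Ppargc1b, so that a shift between promoters or splice forms is not visible in them.

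Perm1, a muscle-restricted target of PGC-1 and estrogen-related receptors that in turn promotes their programme, was the most abundant of the 10 genes. Its level was 53.4 FPKM in Cry2scko and 47.8 FPKM in Cry2flox. On 3419 reads in Cry2scko and 3528 reads in Cry2flox its log2 ratio was 0.14 (0.07 to 0.21), a 1.10-fold higher level in Cry2scko. The log2 ratio of Ppargc1a was below that of Perm1, a difference of -0.36 (-0.53 to -0.19). Of the 6 pairs of related genes compared in this way, 4 had an interval that leaves out 0, that of Rxra and Rxrg only just. These intervals cover counting error only. The share of such pairs among all genes was not computed, so the count has no background to be read against.

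**Figure D3:**
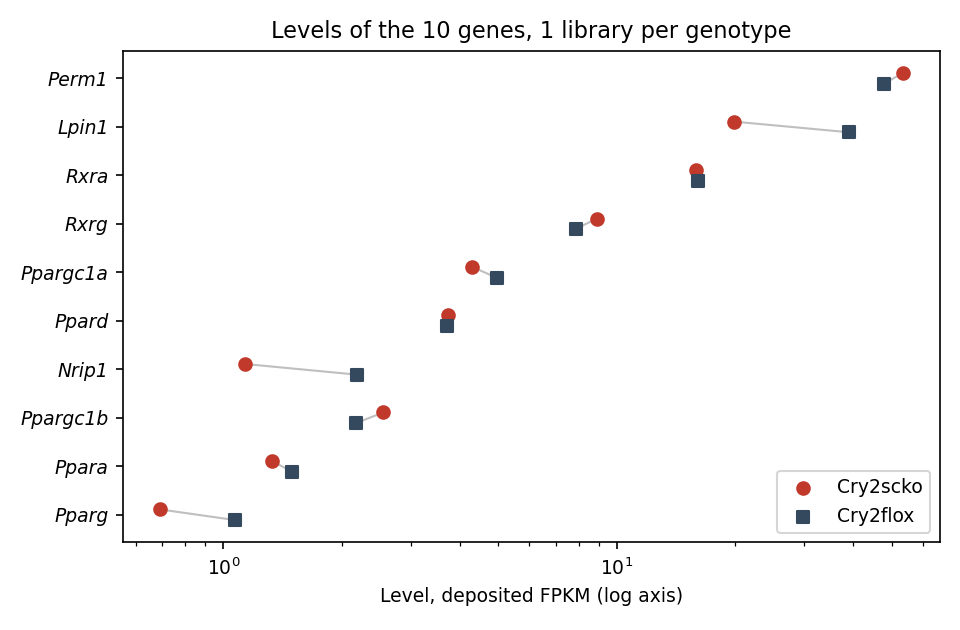
Deposited FPKM of each gene on a log axis, with the Cry2scko library as circles above the Cry2flox library as squares, in the order of the Cry2flox level. Lpin1 (19.8 FPKM in Cry2scko and 38.9 FPKM in Cry2flox) and Nrip1 (1.13 FPKM in Cry2scko and 2.18 FPKM in Cry2flox) show the widest gaps.

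Lpin1 encodes lipin 1, which converts phosphatidate to diacylglycerol on the way to triglyceride and in the nucleus works with PPAR alpha and PGC-1 alpha on oxidative genes. It had 1865 reads or 19.8 FPKM in Cry2scko, against 4213 reads or 38.9 FPKM in Cry2flox. The log2 ratio was -0.99 (-1.07 to -0.91), a 1.99-fold lower level in Cry2scko. The value fell just short of the 2-fold rule, and the narrow interval spans that threshold. Counted from the lowest ratio, Lpin1 stood at place 200 among the 12832 genes compared, and at place 5 among the 950 genes whose mean was at least 100 CPM. With DESeq2 size factors the log2 ratio was -1.0002 and Lpin1 passed the rule.

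Nrip1 had 353 reads or 1.13 FPKM in Cry2scko, against 783 reads or 2.18 FPKM in Cry2flox. Its log2 ratio was -0.97 (-1.15 to -0.78), a 1.95-fold lower level, at place 216 from the lowest. The ratios of Lpin1 and Nrip1 were alike in size, while their levels differed widely, and the interval of each holds the value of the other. In the order of FPKM levels Nrip1 stood at place 9 of 10 in Cry2scko and at place 7 in Cry2flox, where its level was next to equal to that of Ppargc1b. Lpin1 stood at place 2, after Perm1, in both libraries, but this order rests on the authors' gene lengths. The deposited values imply 5725 bp for Lpin1 and 18958 bp for Nrip1, against merged exons of 9665 bp and 11457 bp in GENCODE M21. Per kilobase of those merged exons, Lpin1 was at 11.7 CPM in Cry2scko and 23.2 CPM in Cry2flox, below Rxra at 24.0 CPM in Cry2scko and 24.5 CPM in Cry2flox. On the same scale Nrip1 was at 3.64 CPM in Cry2flox, above Ppargc1b at 2.40 CPM, so their near equality holds by FPKM only. In Cry2scko Nrip1 was at 1.86 CPM and Ppargc1b at 2.77 CPM.

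Markers of other cell types differed between the same libraries. All 8 tendon and fibroblast genes had ratios below 1, 4 of them past the 2-fold rule, with a sum of 833 CPM in Cry2scko and 1270 CPM in Cry2flox. All 6 lymphocyte genes were past the rule in the higher direction, with a sum of 90.1 CPM in Cry2scko and 33.3 CPM in Cry2flox. The endothelial list summed to 376 CPM in Cry2scko and 401 CPM in Cry2flox, with 0 of 5 genes past the rule. The macrophage list summed to 38.9 CPM in Cry2scko and 43.1 CPM in Cry2flox, also with 0 of 5. By the same rule 3.37% of all genes compared were higher and 1.51% lower. A count of 0 among 5 genes is thus near the background. The part of these cells in the values of Lpin1 and Nrip1 was not tested.

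**Figure D4:**
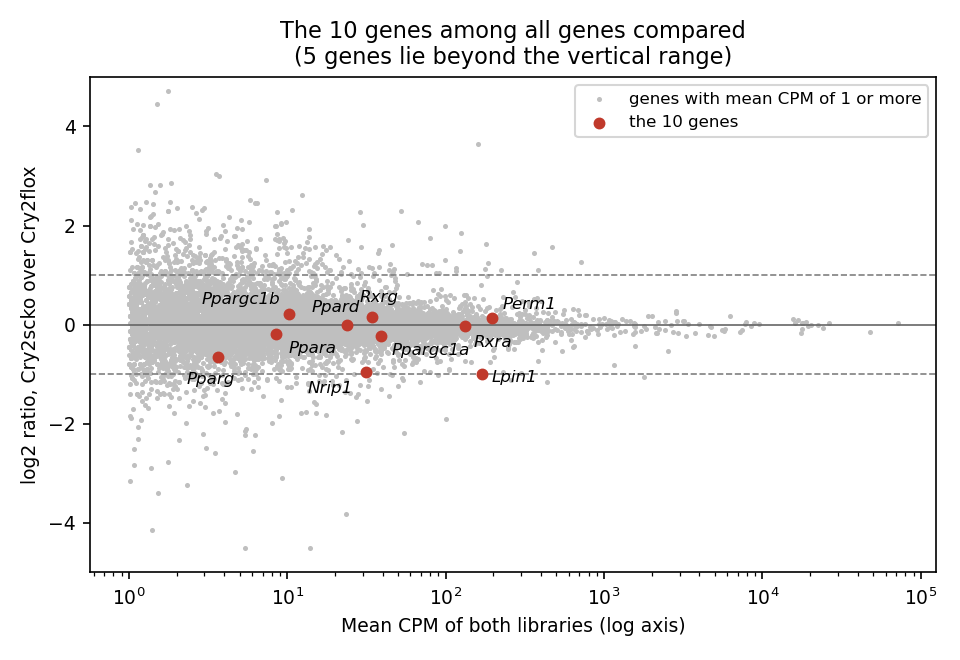
Log2 ratio of Cry2scko over Cry2flox against mean CPM (log axis) for the 12832 genes compared, in grey, with the 10 genes in red; dashed lines mark 2-fold. Lpin1 and Nrip1 lie on the lower edge of the cloud for their abundance, and the other red points lie inside it.

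The 3 genes whose promoters are shown are the pair with the lowest ratios, Lpin1 and Nrip1, and Ppargc1a for comparison. Each sequence holds the 250 bases before a transcription start in RefSeq on GRCm38.p6, read 5′ to 3′ on the strand of the gene, which is the minus strand for each. Capitals mark a match to the nuclear receptor half-site AGGTCA, which PPAR, RXR, REV-ERB and ROR proteins can bind, or to the cAMP response half-site TGACG, in either orientation. The E-box CACGTG, the site of the CLOCK and BMAL1 activators on which cryptochromes act, was also searched. The 3 motifs can share bases with each other, and no matches overlapped in the sequences shown. The sequences are Lpin1 at chr12:16610967-16611216, Nrip1 at chr16:76373828-76374077 and Ppargc1a at chr5:51567726-51567975.
Lpin1: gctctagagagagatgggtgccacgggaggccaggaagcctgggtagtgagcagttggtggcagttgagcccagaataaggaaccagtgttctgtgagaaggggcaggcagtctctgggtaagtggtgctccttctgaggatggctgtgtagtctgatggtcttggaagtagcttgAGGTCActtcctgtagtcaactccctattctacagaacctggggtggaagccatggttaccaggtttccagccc
Nrip1: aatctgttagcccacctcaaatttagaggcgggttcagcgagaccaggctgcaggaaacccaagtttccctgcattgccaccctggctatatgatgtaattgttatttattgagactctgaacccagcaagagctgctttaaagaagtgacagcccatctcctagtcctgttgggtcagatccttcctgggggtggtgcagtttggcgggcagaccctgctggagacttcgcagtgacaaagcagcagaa
Ppargc1a: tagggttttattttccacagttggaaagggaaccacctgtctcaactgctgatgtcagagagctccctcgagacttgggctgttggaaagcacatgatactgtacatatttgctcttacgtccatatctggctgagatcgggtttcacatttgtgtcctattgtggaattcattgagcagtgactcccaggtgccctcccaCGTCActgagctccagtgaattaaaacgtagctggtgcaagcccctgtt

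Lpin1 has AGGTCA starting 74 bases before its start, and Ppargc1a has the half-site of the cAMP response element on the other strand starting 49 bases before its start. The Nrip1 window held none of the 3 motifs. RefSeq entries were found for 9 of the 10 genes, with 14 starts in all. Counted by window, AGGTCA was present at 6 of the 14 starts, which belong to 5 of the 9 genes (Rxrg, Rxra, Perm1, Pparg and Lpin1), and in 14.0% of all 32851 promoter windows of this length. TGACG was present at 2 of the 14 starts, in Ppargc1a and Ppara, and in 17.8% of all windows. CACGTG was present at 0 of the 14 starts and in 6.02% of all windows. These matches describe the letters only.

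None of the 10 genes shares exon bases with another annotated gene in GENCODE M21, although the gene models the authors used may differ from it. Their positions on GRCm38 are as follows. Lpin1 (ENSMUSG00000020593) lies on chromosome 12 from 16535669 to 16610966, Nrip1 (ENSMUSG00000048490) on chromosome 16 from 76287400 to 76373827 and Ppargc1a (ENSMUSG00000029167) on chromosome 5 from 51454250 to 51567726, each on the minus strand. Pparg (ENSMUSG00000000440) lies on chromosome 6 from 115360951 to 115490399, Ppara (ENSMUSG00000022383) on chromosome 15 from 85734983 to 85802819 and Ppard (ENSMUSG00000002250) on chromosome 17 from 28232700 to 28301474, each on the plus strand. Rxra (ENSMUSG00000015846) lies on chromosome 2 from 27676440 to 27762957, Rxrg (ENSMUSG00000015843) on chromosome 1 from 167598384 to 167639623 and Perm1 (ENSMUSG00000078486) on chromosome 4 from 156215868 to 156221307, also on the plus strand. Ppargc1b (ENSMUSG00000033871) lies on the minus strand of chromosome 18 from 61298136 to 61400431.

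Known target genes of the PPARs mostly differed little, apart from 3 that were higher in Cry2scko. Of 34 listed genes, 32 were compared, 3 were higher by the 2-fold rule, 0 lower and 29 neither. Over all genes compared 3.37% were higher. The median log2 ratio of the list was 0.04, and the 29 others all lay within 0.5 of equality.

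Pdk4, the kinase that shuts pyruvate out of oxidation, was read 11643 times in Cry2scko and 4434 times in Cry2flox, 2.98-fold higher. Mgll, which encodes the lipase that completes triglyceride breakdown, was read 910 times in Cry2scko and 377 times in Cry2flox, a log2 ratio of 1.45 (1.28 to 1.63). Angptl4, an inhibitor of lipoprotein lipase that fatty acids induce, was read 119 times in Cry2scko and 56 times in Cry2flox, a log2 ratio of 1.26 (0.80 to 1.76). The receptor genes Ppara, Ppard and Pparg had log2 ratios of -0.19, -0.00 and -0.65 beside these.

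Other abundant list genes were higher by less than 2-fold. Of the 32 genes compared, 18 had a ratio above 1 and 14 a ratio below 1. Ucp3 had a log2 ratio of 0.42 (0.34 to 0.50). Fabp3, the fatty acid binding protein of heart and oxidative muscle, had a log2 ratio of 0.44 (0.39 to 0.49). Lpl, the lipase of the capillary wall that Angptl4 inhibits, had a log2 ratio of 0.31 (0.27 to 0.35). The carnitine transferase gene Cpt1b, which controls entry of fatty acids into mitochondria, was at 0.10 (0.04 to 0.17). Acot1, a cytosolic thioesterase gene with close paralogs, had 5 reads in Cry2scko and 19 reads in Cry2flox and lay under the CPM minimum.

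**Figure D5:**
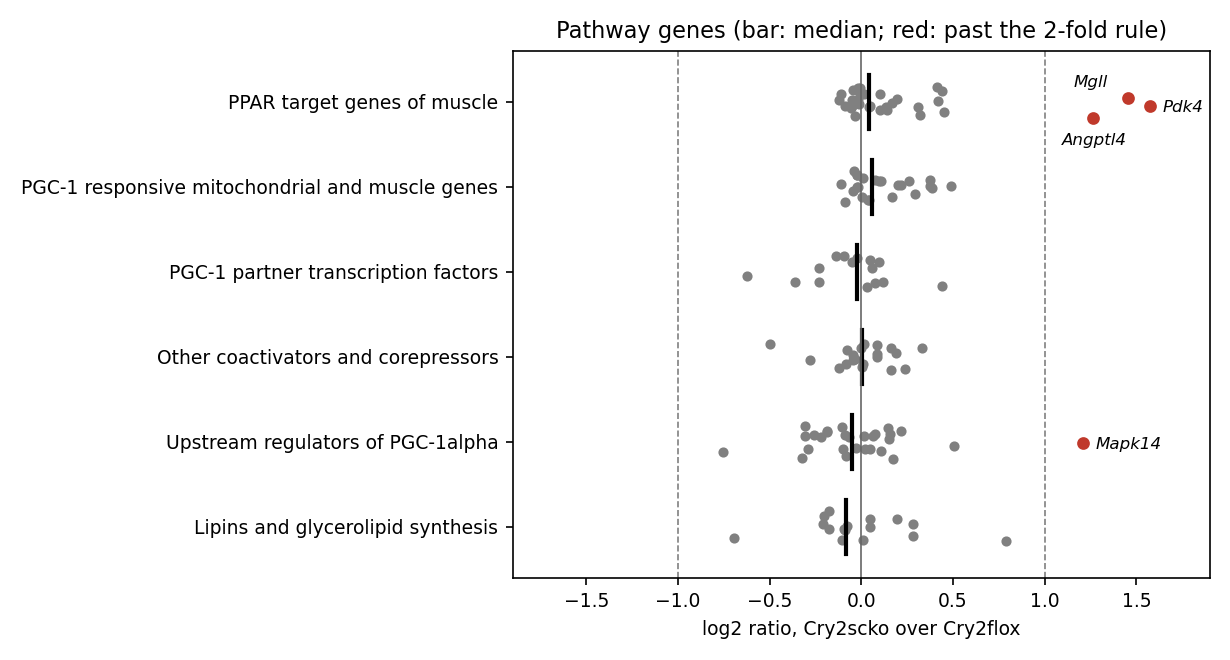
Log2 ratios of Cry2scko over Cry2flox for the compared genes of 6 pathway lists, with a bar at the median of each list and dashed lines at 2-fold. Each list has 1 point per gene. Esrra belongs both to the PGC-1 responsive genes and to the PGC-1 partner factors, and is drawn in each. Pdk4, Mgll, Angptl4 and Mapk14, in red, are past the 2-fold rule, and every list median lies within 0.1 of 0.

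Genes that PGC-1 alpha raises in muscle differed little. Of 25 listed genes 24 were compared, 0 were past the 2-fold rule in either direction, all 24 lay within 0.5 of equality and the median log2 ratio was 0.06. Over all genes compared, 4.88% were past the rule in either direction, so a count of 0 among 24 is near the background. The abundant members were at -0.09 for Atp5b, a subunit of ATP synthase, 0.10 for Ckmt2, the mitochondrial creatine kinase, and 0.04 for Mb, myoglobin. Vegfa, the growth factor of capillaries, was at 0.37 (0.29 to 0.46).

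Slow-fibre markers, by contrast, were higher in Cry2scko, with 5 of 7 genes past the 2-fold rule and a sum of 2658 CPM in Cry2scko, against 1255 CPM in Cry2flox. The share of all genes compared that were higher by that rule was 3.37%. Slow fibres are oxidative and are known for high PGC-1 alpha. The part of fibre composition in the values of the 10 genes and their targets was not tested.

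A list of 15 genes held transcription factors of the PGC-1 programme, together with Tfb1m, Tfb2m and Polrmt of the mitochondrial transcription machinery. Of the 15, 0 were past the 2-fold rule, near the 4.88% of all genes compared that were past it in either direction, and the median log2 ratio was -0.02. The muscle transcription factor genes Mef2c, Mef2d and Mef2a were at 0.09, -0.05 and -0.14, and Esrra, the estrogen-related receptor most closely tied to PGC-1, at -0.02 (-0.15 to 0.10). Thrb, a thyroid hormone receptor gene, was the 1 gene of the list past 1.5-fold. It had 187 reads in Cry2scko and 327 reads in Cry2flox and a log2 ratio of -0.62 (-0.89 to -0.36). Over all genes compared 10.9% were past 1.5-fold in either direction, so a count of 1 among 15 is near the background.

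A further list of 21 genes held other coactivators and corepressors, together with the receptor gene Rxrb. Of these 20 were matched, and 0 of the 20 were past either threshold. Over all genes compared the shares in either direction were 4.88% at 2-fold and 10.9% at 1.5-fold, so that a count of 0 in a list of this size lies near the background. Their median log2 ratio was 0.01. Ncor1, the corepressor that opposes PPARs and estrogen-related receptors in muscle, was at 0.01 (-0.08 to 0.10), the acetyltransferase gene Kat2b at -0.08 and the corepressor gene Ctbp1, whose product partners RIP140, at 0.16. Pprc1, the third gene of the PGC-1 family, was at 0.33 (0.08 to 0.58). The lowest ratio of the list was that of Ncoa1, a steroid receptor coactivator, at -0.50 (-0.64 to -0.35), so that Nrip1 lay below each of these 20 genes.

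Of 28 genes that act upstream of PGC-1 alpha, 1 was higher by the 2-fold rule, 0 were lower and 27 were neither. Over all genes compared 3.37% were higher and 1.51% lower, so these counts lie near the background. The higher gene was Mapk14, which encodes the p38 alpha kinase that activates PGC-1 alpha, with 1756 reads in Cry2scko and 862 reads in Cry2flox and a log2 ratio of 1.21 (1.09 to 1.33). Ppp3cb, a catalytic subunit of the calcium-activated phosphatase calcineurin, was the lowest, with 2354 reads in Cry2scko and 4506 reads in Cry2flox and a log2 ratio of -0.75 (-0.83 to -0.68). Its relative Ppp3ca was at -0.11. The AMP-activated kinase subunits Prkaa2 and Prkag3, of the form typical of fast muscle, were at -0.22 (-0.28 to -0.17) and -0.29 (-0.36 to -0.22). The median of the list was -0.05.

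Around Lpin1 in glycerolipid synthesis, 16 of 17 listed genes were compared and 0 were past the 2-fold rule, with a median log2 ratio of -0.08. With 4.88% of all genes compared past the rule in either direction, that count is near the background. The other lipin genes did not share the ratio of Lpin1. Lpin2 had 87 reads in Cry2scko and 57 reads in Cry2flox at 0.79 (0.295 to 1.301), and Lpin3 had 138 reads in Cry2scko and 129 reads in Cry2flox at 0.28 (-0.08 to 0.64). Lpin1 was the main lipin gene in both libraries, since its level of 19.8 FPKM in Cry2scko and 38.9 FPKM in Cry2flox compares with 0.316 FPKM in Cry2scko and 0.180 FPKM in Cry2flox for Lpin2. For Lpin3 the level was 1.57 FPKM in Cry2scko and 1.27 FPKM in Cry2flox. Gpd1 and Gpam, which supply and acylate glycerol phosphate ahead of lipin, were at -0.18 and -0.20, and Agpat3, an acyltransferase, was at 0.20. Agpat2, the acyltransferase of fat cells, was at -0.70 (-1.25 to -0.17) on 46 reads in Cry2scko and 85 reads in Cry2flox.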

How the data were processed

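The authors deposited whole-number counts of reads per Ensembl gene, not normalised, and FPKM in 1 file for each library, per the file headers. CASAVA, HISAT2 2.0.4 and StringTie 1.3.0 with GRCm38 are named in the submitters' processing notes; the counter, annotation release and strand setting are not given in the sources used here. Counts and FPKM implied 1 gene length within 0.1 percent in all 16284 genes read in both libraries. Symbols came from GENCODE M21.

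TMM factors from edgeR 4.0.16 in R 4.3.3 were 1.007 for Cry2scko and 0.993 for Cry2flox. Log2 ratios used 0.5 reads added to each count, with exact Clopper-Pearson intervals on the share of reads in Cry2scko, and for pairs of genes exact conditional intervals of the odds ratio (scipy 1.17.1, Python 3.11.15).

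The 10 genes and the lists were chosen with earlier results of these data known. The rule for names took the 10 genes, the list genes past the 2-fold rule and the 3 of each pathway list with the highest mean CPM; other named genes were chosen after their values were seen. No gene is named for a pattern like that of a member, since likeness over 2 libraries is undefined. Alternatives were total-count and DESeq2 1.42.0 scaling, totals without mitochondrially encoded and the 20 most abundant genes, FPKM with 0.1 added, 5 reads added, no filter, and a minimum of 5 CPM.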

Additional observations from a re-analysis of the deposited data

How the results depend on the processing

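No paired analysis was possible because each genotype has 1 library, and for the same reason no library could be left out. The count of the 10 genes lower by the 2-fold rule, 0, became 1 with DESeq2 size factors, under which the log2 ratio of Lpin1 was -1.0002; over 7 alternatives Lpin1 lay between -1.0002 and -0.96 and Nrip1 between -0.97 and -0.89. Pparg lay between -0.66 and -0.57 over the 6 alternatives that keep it, and the count lower at 1.5-fold was 3 except for 2 with FPKM and 2 from a mean of 5 CPM. PPAR targets lower by the 2-fold rule numbered 1 without a filter on low counts, and also 1 with totals that leave out mitochondrially encoded and the 20 most abundant genes, against 0, since Acot1 then enters. Ppard lay between -0.01 and 0.02, so its sign depends on the scaling. By CPM per kilobase of merged exons in place of FPKM, 6 of the 10 genes kept their place in the order of levels in Cry2flox, and 7 in Cry2scko. Depth limits Pparg and Ppara most.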
